A study of Homo sapiens with 47 samples.

Results

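The genes of the aminoacyl-tRNA synthetases, the enzymes that load each tRNA with its amino acid, were followed across maps of protein contacts with RNA in human cells. Members were the RefSeq protein-coding genes with a symbol made of an amino acid letter, ARS and 1 or 2, together with EPRS1. This gave 35 of 20037 protein-coding genes, of which 18 end in 1 and are called cytosolic here and 17 end in 2 and are called mitochondrial. The contacts were mapped by uSpyCLIP-seq, a method that fixes a SpyTag-carrying protein onto its RNA with ultraviolet light, pulls it down by the covalent bond that SpyTag forms with SpyCatcher, and sequences the RNA that came along. All of the 47 libraries came from the 293T line, a human embryonic kidney line, as Lenti-X 293T lines that stably expressed the protein under study.

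PTBP1 was profiled from 10000000, 100000, 10000 and 1000 crosslinked cells, and RBFOX2 from 10000000 cells, with 2 libraries a group. A further comparison set SpyCatcher version 1.0 against version 2.0, each at 20 µg and at 40 µg, with a single library for each. The sample labels of this comparison name no captured protein, while the deposited lists are named for PTBP1. The Cas13 proteins dPspCas13b and dRfxCas13d, RNA-guided nucleases without their catalytic activity, were each profiled in crosslinked cells without guide RNA, with guide EZH2g1 and with guide EZH2g2, with 3 libraries a group. Sites of 15 groups are described, from 1 deposited list per group. A list holds hg38 positions with their strands and neither scores nor counts of reads. The depth behind a site is therefore unknown, no spread between libraries can be had, and no test between groups was made. The uncrosslinked groups and the gNT group were not analysed here, so background capture cannot be told apart from binding. Intervals in parentheses are exact (Clopper-Pearson) 95% intervals and cover counting error only. Gene spans do not part exons from introns here, and the RNA level of the genes was not measured, so more binding and more RNA cannot be told apart. A site was given to a gene when its midpoint lay in the gene span on the gene's strand.

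Each synthetase activates its amino acid with ATP and transfers it to the matching tRNA. Cytosol and mitochondria use separate enzymes for most amino acids, and both sets are encoded in the nucleus. GARS1 (glycine) and KARS1 (lysine) encode the enzyme of both compartments. In animal cells several of the cytosolic genes, among them EPRS1, IARS1, LARS1, MARS1, QARS1, RARS1 and KARS1, encode enzymes of the multisynthetase complex, which is held together by the scaffold proteins AIMP1, AIMP2 and EEF1E1. PTBP1 is a splicing regulator known to bind pyrimidine-rich stretches of introns, and RBFOX2 is a splicing regulator known for the motif GCATG. Every growing cell makes synthetase messenger RNAs.

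Sites other than those of Cas13 were narrow and are called clusters. Few of them fell where sequence was at hand. They were 5 or 6 nt wide in the median. Of the windows around gene starts in the RefSeq table of GRCh38.p14, those of GARS1, MARS1, QARS1 and YARS2 held a PTBP1 cluster of the 10000000-cell list. Stretches of the first 3, and a microRNA hairpin inside IARS1 that held 2 clusters, are shown as examples of bound member sequences. That of YARS2 is not shown. Bases inside a cluster are in capitals.
GARS1, chr7:30594873-30594902, plus strand: gcgccgctTCCGTCGccaccctctctggac
MARS1, chr12:57488065-57488094, plus strand: tgcATCAGCgagggATTCAcggcgAAATGA
QARS1, chr3:49104734-49104763, minus strand: aagtttctTTTAGTTtccggtgtctctgca
MIR3651 hairpin in IARS1, chr9:92292458-92292547, minus strand: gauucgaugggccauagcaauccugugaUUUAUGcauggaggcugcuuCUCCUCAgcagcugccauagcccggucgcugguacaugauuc

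Of the bases inside clusters, 5 of 7 were pyrimidines in GARS1, 5 of 7 in QARS1, 7 of 17 in MARS1 and 10 of 13 in the hairpin. The MARS1 clusters lay at the first bases of the gene, where 5 clusters stood within the table window. In the hairpin the clusters ran from 92292493 to 92292499 and from 92292514 to 92292519, and the 10000-cell list had a cluster from 92292494 to 92292499. The other lists had none there. The small nucleolar RNA gene SNORA84 overlaps the hairpin on the same strand, and reads of the hairpin, the small nucleolar RNA and IARS1 cannot be told apart. The hairpins of MIR215 and MIR194-1, inside IARS2 but on the other strand, and those of MIR6758 in MARS1, MIR6890 in QARS1 and MIR6878 in TARS2 held no site in any of the 15 lists.

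Most synthetase genes held PTBP1 clusters, and they did so more often than protein-coding genes at large. At 10000000 cells 32 of 35 members held a cluster, against 60.3% of all protein-coding genes, which include genes of any expression level. At 100000 cells 31 members did against 56.2%, at 10000 cells 28 against 46.2%, and at 1000 cells 22 against 31.0%. In the same order of inputs the members held 3082, 2733, 1024 and 121 clusters. By class, 17, 17, 16 and 12 of the 18 cytosolic genes and 15, 14, 12 and 10 of the 17 mitochondrial genes held a cluster. In all 4 inputs 21 members held one (60.0%), against 27.3% of all protein-coding genes.

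**Figure D1:**
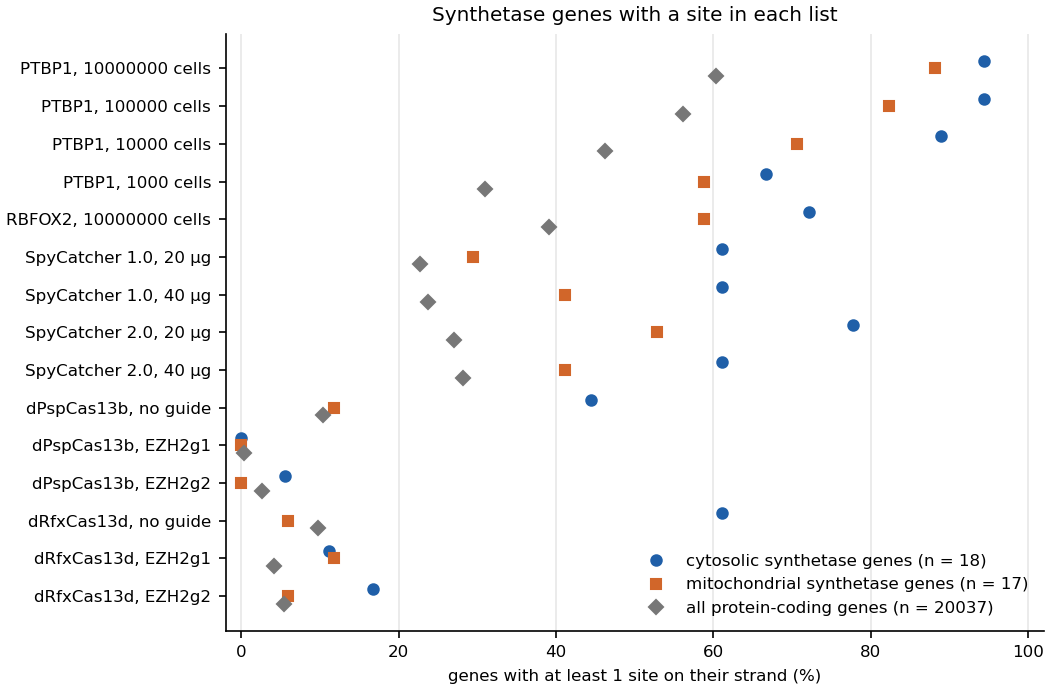
Percent of genes with at least 1 site on their strand in each of the 15 lists, for the 18 cytosolic and 17 mitochondrial synthetase genes and all 20037 protein-coding genes. In the lists without guide the cytosolic genes stand at 44.4% for dPspCas13b and 61.1% for dRfxCas13d, while the mitochondrial genes stand at 11.8% and 5.88%.

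Both classes held about the same number of clusters at 10000000 cells, 1575 in cytosolic and 1507 in mitochondrial genes. Pooled per kb of gene span, these were 2.17 and 1.16. By their sums the classes parted at 10000 cells and below. At 100000 cells the numbers were 1390 and 1343, at 10000 cells 727 and 297, and at 1000 cells 96 and 25. Relative to their own number at 10000000 cells, cytosolic genes held 46.2% at 10000 cells and mitochondrial genes 19.7%, with 25.8% for all protein-coding genes. Without FARS2 the mitochondrial value was 24.3%. As medians over genes with at least 10 clusters at 10000000 cells, the values were 42.1% in cytosolic, 20.8% in mitochondrial and 19.0% in all protein-coding genes, so that mitochondrial genes stood below all genes by the sums and not by the medians. At 100000 cells the medians already differed, at 90.8%, 69.0% and 70.6% in the same order. At 1000 cells the sums gave 6.10%, 1.66% and 3.14%, and the medians 4.49%, 1.22% and 1.35%. These are 1 list per input with no replicate check, and the gap at 1000 cells rests in large part on few genes. Without IARS1, LARS1 and YARS1 the cytosolic value was 3.70%, and without FARS2 the mitochondrial value was 1.83%, in groupings chosen after seeing the data.

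The strand of the gene moved with these values. The 12 cytosolic genes on the minus strand held 88 clusters at 1000 cells, 7.38% of their number at 10000000 cells, and the 5 on the plus strand held 8, or 2.09%. IARS1, LARS1 and YARS1 are all on the minus strand and held 17, 21 and 23 of the 88, so this gap rests in large part on them. Mitochondrial genes held 2.27% on the minus and 0.980% on the plus strand. Over all protein-coding genes the shares were 4.02% and 2.10%. The part of strand in the difference between classes was not tested.

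**Figure D2:**
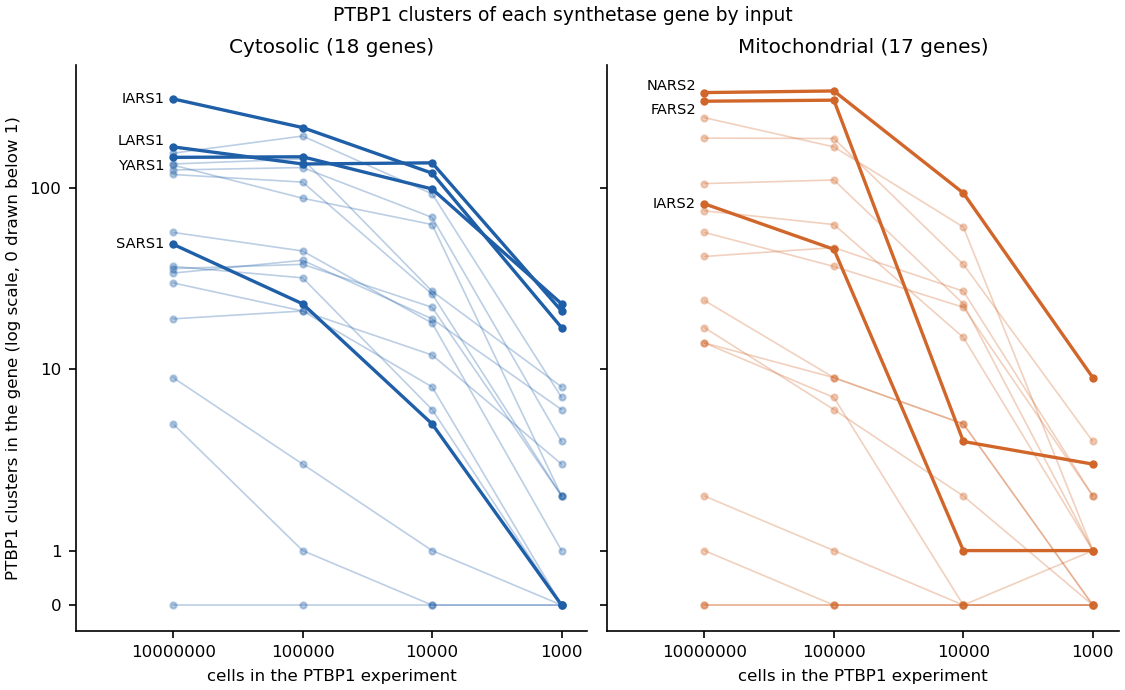
PTBP1 clusters in each synthetase gene at 4 cell inputs, on a log scale with 0 drawn below 1, with the 18 cytosolic genes left and the 17 mitochondrial genes right. YARS1, LARS1 and IARS1 end highest at 1000 cells with 23, 21 and 17 clusters, while FARS2 goes from 306 at 100000 cells to 4 at 10000.

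Of the multisynthetase complex, EPRS1, IARS1, LARS1 and MARS1 held clusters at each of the 4 inputs. LARS1, the leucine enzyme and also known as a leucine sensor, held 169, 136, 138 and 21 clusters as the input went down. Its 10000-cell number thus stood at 81.7% of the top list, above every other member with at least 10 clusters there. IARS1, the isoleucine enzyme, held 311, 216, 121 and 17, the most of any cytosolic member in the longest list. EPRS1, a fusion of the glutamate and proline enzymes, held 136, 145, 27 and 8, with a steeper step to 10000 cells than IARS1 and a like share at 1000 (5.88%) to that of IARS1 (5.47%). MARS1, the methionine enzyme that also serves the initiator tRNA, held 134, 88, 63 and 2 in only 28.6 kb. Per kb this was the highest density of the cytosolic genes, at 4.69 clusters per kb at 10000000 cells. RARS1 (arginine) held 37, 32, 6 and 0 clusters, KARS1 held 19, 21, 8 and 0, and QARS1 (glutamine) held 9, 3, 1 and 0. These last 3 genes had no cluster at 1000 cells.

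Outside the complex, 9 of 10 cytosolic genes held clusters at 10000000 cells and 7 at 1000. Over all protein-coding genes the shares were 60.3% and 31.0%. YARS1, the tyrosine enzyme, held 148, 149, 99 and 23, which was the largest number of any member at 1000 cells. GARS1 held 126, 130, 69 and 4, and WARS1, the tryptophan enzyme, held 119, 108, 26 and 2. WARS1 and GARS1 began close together and differed at 10000 cells. HARS1 (histidine) held 34, 40, 19 and 6, so that its number at 1000 cells was 17.6% of the top list, the highest share among members with at least 10 clusters there. NARS1 (asparagine) held 30, 21, 12 and 3, TARS1 (threonine) 36, 38, 22 and 2, AARS1 (alanine) 57, 45, 18 and 1, and SARS1 (serine) 49, 23, 5 and 0. CARS1, the cysteine enzyme, held 5, 1, 0 and 0 in 56.5 kb, or 0.0885 clusters per kb, the lowest density of the cytosolic genes with a cluster. Per kb at 10000000 cells, IARS1 (3.72), YARS1 (3.51) and GARS1 (3.21) followed MARS1, and the cytosolic median was 1.85.

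Among the mitochondrial genes, long genes held most clusters. NARS2 (asparagine), 139 kb long, held 337, 344, 94 and 9 clusters, the most of any member at the upper inputs. FARS2, the mitochondrial phenylalanine enzyme and the longest member at 522 kb, held 302, 306, 4 and 3. Its number at 10000 cells was 1.32% of that at 10000000 cells, where that of NARS2 was 27.9%. LARS2 (leucine) held 245, 169, 61 and 1, RARS2 (arginine) 189, 188, 38 and 4, and WARS2 (tryptophan) 106, 111, 23 and 1. IARS2 (isoleucine) held 82, 46, 1 and 1, a step at 10000 cells like that of FARS2. CARS2 held 75, 63, 15 and 1, EARS2 57, 37, 22 and 2, and TARS2 42, 47, 27 and 2. TARS2, at 20.2 kb, stood at 64.3% of its top number at 10000 cells. The short gene MARS2, 3.03 kb, held 24, 9, 5 and 0 and had the highest density of all members at 10000000 cells, 7.93 clusters per kb. Among the mitochondrial genes RARS2 (2.49), NARS2 (2.43) and TARS2 (2.08) came next. The mitochondrial median was 1.04. YARS2 held 14, 9, 5 and 0, AARS2 14, 7, 0 and 1, HARS2 2, 1, 0 and 0, and PARS2 (proline) 1 and then 0.

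Over the 35 genes the number of clusters followed gene length, with a Spearman correlation of 0.85 at 10000000 cells, 0.84 at 100000, and 0.62 at both 10000 and 1000 cells. The points share their library, and genes are not replicates. Counts of the lower inputs correlated with those at 10000000 cells at 0.98, 0.85 and 0.80 from 100000 to 1000 cells.

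HARS1 and HARS2 show how differently neighbours can stand. They lie head to head on chromosome 5 with starts 84 nt apart, and they encode the cytosolic and the mitochondrial histidine enzymes. HARS1, 17.5 kb on the minus strand, held 34 clusters at 10000000 cells, and HARS2, 7.85 kb on the plus strand, held 2. Per kb these were 1.95 and 0.255.

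VARS1 and VARS2, the cytosolic and mitochondrial valine enzymes, and SARS2, the mitochondrial serine enzyme, held no site in any of the 15 lists, on either strand. By the strand rule used here, 8.57% of the members were without any site, against 34.7% of all protein-coding genes. Each of the 3 genes lies in a stretch with no cluster of the 10000000-cell list. For VARS2 this stretch on chromosome 6 runs between clusters at 28610529 and 31148766, 2538 kb with 63 protein-coding genes, among them TUBB, ABCF1 and FLOT1. For VARS1, also on chromosome 6, it runs between 31668246 and 31835283, 167 kb with 18 genes such as CLIC1 and LSM2. For SARS2 on chromosome 19 it runs between 38416474 and 39024961, 608 kb with 17 genes such as HNRNPL, ACTN4 and EIF3K. Of the protein-coding genes within 250 kb, 1 of 21 held a cluster around VARS2, 2 of 47 around VARS1 and 2 of 16 around SARS2. Around HARS2, for comparison, 25 of 30 did. The gap is shared by whole neighbourhoods, so that for these 3 genes an absence of binding cannot be told apart from an absence of any listed site in the region. How reads that map to several places or to alternate contigs were treated is not given in the sources used here, and its part in these gaps was not tested. CARS1 and PARS2, the other genes at the low end, had 3 of 8 and 3 of 9 neighbours with a cluster.

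RBFOX2 clusters lay in many of the same genes, again more in cytosolic ones. They numbered 477 in 23 of 35 members, against 39.1% of all protein-coding genes with a cluster, and 365 of them were in 13 cytosolic and 112 in 10 mitochondrial genes. LARS1 held 86, YARS1 83, IARS1 71, NARS2 49, MARS1 30 and GARS1 28. WARS1 and SARS1 held none, and EPRS1 held 3, although each had at least 49 PTBP1 clusters at 10000000 cells. Set against the PTBP1 number of the same gene at 10000000 cells, RBFOX2 clusters amounted to 56.1% in YARS1, 50.9% in LARS1, 32.4% in HARS1 and 22.8% in IARS1, and to 2.21% in EPRS1 and 2.65% in FARS2. For the class sums the values were 23.2% in cytosolic, 7.43% in mitochondrial and 12.3% in all protein-coding genes, and 13.2% in cytosolic genes without IARS1, LARS1 and YARS1. On the minus and plus strands cytosolic genes stood at 25.1% and 17.3%, and mitochondrial genes at 9.84% and 4.76%. YARS1, LARS1 and HARS1 stood high on this measure and on the PTBP1 share at 1000 cells, which has the same denominator, while EPRS1, NARS1 and AARS2 stood low on it.

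**Figure D3:**
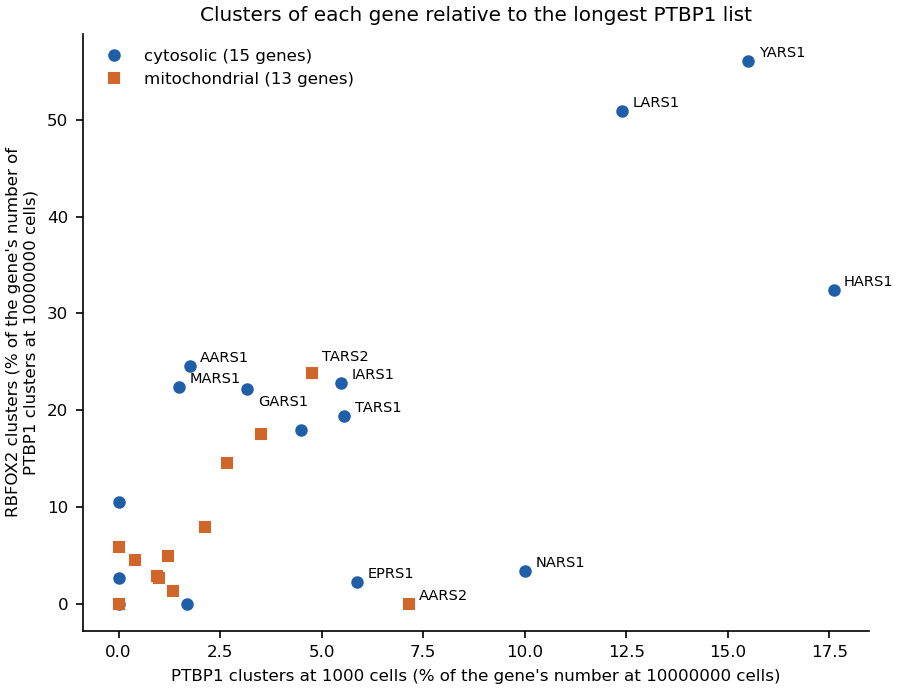
PTBP1 clusters at 1000 cells against RBFOX2 clusters, both as a percent of the PTBP1 clusters of the same gene at 10000000 cells, for the 15 cytosolic and 13 mitochondrial genes with at least 10 such clusters. YARS1 (15.5% and 56.1%), LARS1 (12.4% and 50.9%) and HARS1 (17.6% and 32.4%) lie above the others, and NARS1 (10.0% and 3.33%) and EPRS1 (5.88% and 2.21%) low on the RBFOX2 axis.

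Positions overlapped too. Of the 477 RBFOX2 clusters in members, 406 shared 1 nt or more, on 1 strand, with a PTBP1 cluster of the 10000000-cell list, or 85.1% (81.6 to 88.2). Over all protein-coding genes this was 81.8%. In the other direction 9.60% (8.59 to 10.7) of the PTBP1 clusters in members overlapped an RBFOX2 cluster, against 7.95%. PTBP1 clusters of lower inputs overlapped those of the 10000000-cell list in 57.8% (56.0 to 59.7) at 100000 cells, 80.3% (77.7 to 82.7) at 10000 and 72.7% (63.9 to 80.4) at 1000. Over all protein-coding genes these shares were 56.0%, 75.5% and 72.7%, so that at 1000 cells the members stood where all genes did. At 100000 cells the share was 65.3% (62.8 to 67.8) in cytosolic and 50.1% (47.4 to 52.8) in mitochondrial genes. At 1000 cells 76.0% (66.3 to 84.2) of the cytosolic and 60.0% (38.7 to 78.9) of the mitochondrial clusters overlapped, with intervals that meet.

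Of the 121 clusters in members at 1000 cells, 72 were found in each of the 3 larger PTBP1 lists, or 59.5% (50.2 to 68.3), against 53.3% over all protein-coding genes. With RBFOX2 as a further list 53 remained, 43.8% (34.8 to 53.1) against 39.5%. By gene these were 16 of 21 clusters in LARS1, 14 of 23 in YARS1 and 9 of 17 in IARS1, but 1 of 8 in EPRS1, 1 of 9 in NARS2 and 0 of 6 in HARS1. Clusters present in all 9 narrow lists numbered 5, or 4.13% (1.36 to 9.38), against 5.23%. They lay in AARS1 at chr16:70270495-70270498, in LARS1 at chr5:146142466-146142480 and chr5:146146342-146146356, and in IARS1 at chr9:92254245-92254249 and chr9:92254252-92254261, all on the minus strand and 18.2 to 44.0 kb from the 3′ end of their gene.

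In the cytosolic genes the clusters at low input gathered in the middle of the gene. Each span was cut into 5 equal stretches along the transcript. At 1000 cells the middle stretch held 50 of 96 cytosolic clusters, or 52.1%, against 16.5% over all protein-coding genes and 6 of 25 in mitochondrial genes. For RBFOX2 it held 51.0% in cytosolic and 19.6% in mitochondrial genes, against 17.3%, and in the longest PTBP1 list 28.3% and 22.4% against 17.5%. At 10000 and 1000 cells and for RBFOX2, YARS1 and LARS1 together held most of the cytosolic clusters in the middle stretch. In YARS1 the middle stretch held 91 of 148 clusters at 10000000 cells, 98 of 149 at 100000, 76 of 99 at 10000, 18 of 23 at 1000 and 63 of 83 for RBFOX2. In LARS1 it held 84 of 169, 83 of 136, 88 of 138, 17 of 21 and 70 of 86. In IARS1 it held 118 of 311, 68 of 216, 41 of 121, 8 of 17 and 23 of 71, beside further groups toward both ends. EPRS1 showed no such single group, with 40 clusters in the stretch at its start and 44 in the last at 10000000 cells.

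In each member with at least 5 clusters at 1000 cells, the 2000 nt that held most of them were taken as a description. In LARS1 the stretch chr5:146146349-146148348, 34.3 kb from the start and 2.87% of the span, held 12 of 21 clusters at 1000 cells, 42 at 10000, 35 at 100000 and 27 at 10000000, with 41 for RBFOX2. Here the longest list had fewer clusters than the list from 10000 cells. In YARS1 the stretch chr1:32792124-32794123, 23.2 kb from the start and 4.75% of the span, held 10 of 23 at 1000 cells, 47 at 10000, 56 at 100000 and 55 at 10000000, with 42 for RBFOX2. In IARS1 the stretch chr9:92252783-92254782 held 5, 14, 16 and 24 from the lowest to the highest input, with 10 for RBFOX2. In EPRS1 the densest stretch held 2, 1, 15 and 14, with 0 for RBFOX2. Across the 4 SpyCatcher lists the LARS1 stretch held 1 to 9 clusters and the YARS1 stretch 3 to 9, while those of EPRS1 and NARS2 held none.

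**Figure D4:**
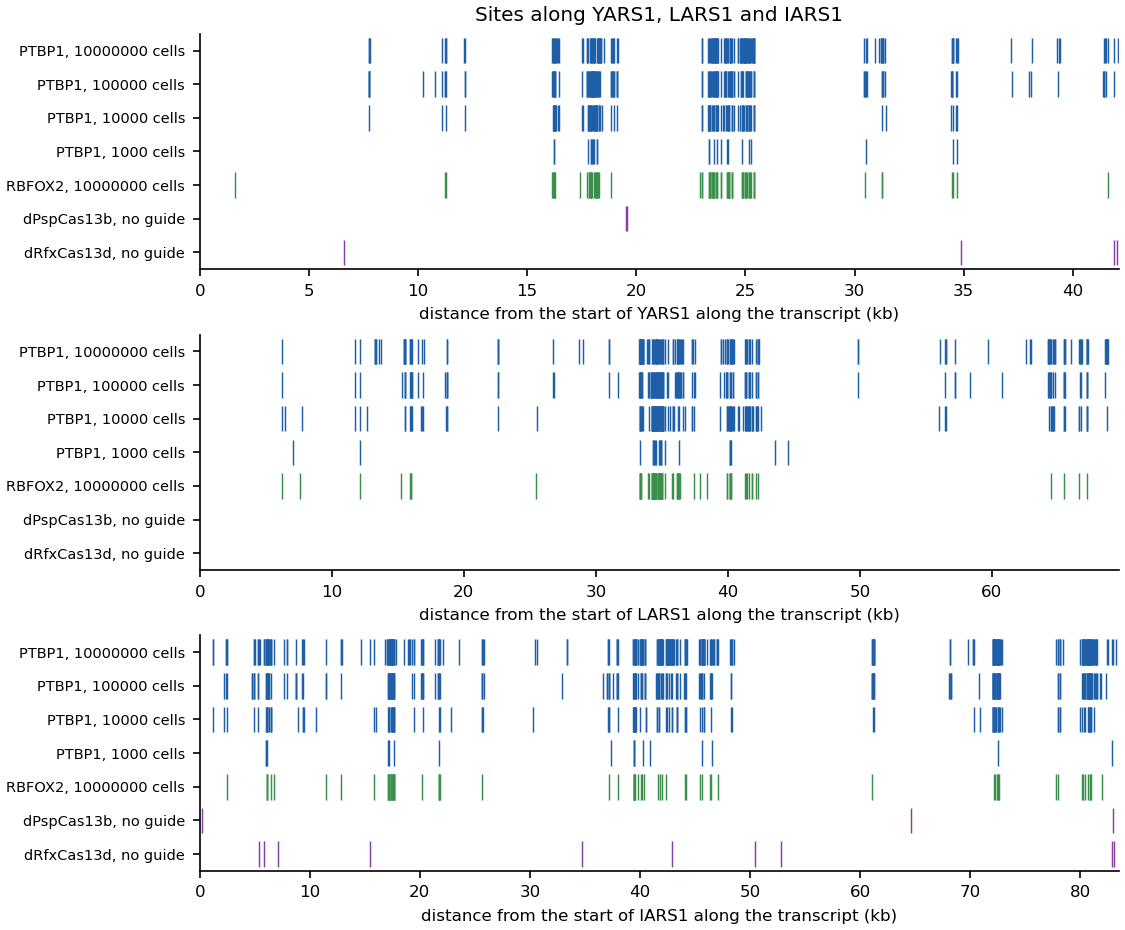
Positions of sites along YARS1, LARS1 and IARS1, in kb from the start of the gene along the transcript, in the 4 PTBP1 lists, the RBFOX2 list and the Cas13 lists without guide, with 1 vertical line per site. The clusters of YARS1 and LARS1 crowd in the middle of the gene in the PTBP1 and RBFOX2 lists alike, those of IARS1 form several groups, and LARS1 has no Cas13 site without guide.

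A smaller share of clusters lay near the 3′ end in the synthetase genes than in all protein-coding genes. The last 2000 nt held 5.06% (4.31 to 5.90) of the members' PTBP1 clusters at 10000000 cells, 3.11% at 100000, 3.61% at 10000 and 3.31% (0.908 to 8.25) at 1000. Over all protein-coding genes the shares were 7.76%, 4.54%, 9.40% and 12.3%, although this window takes a like part of the span, 3.32% in members and 2.86% in all genes. The members' PTBP1 shares lay near that 3.32% at the 3 lower inputs and above it at 10000000 cells. For RBFOX2 the window held 9 of 477 clusters, 1.89% (0.866 to 3.55), against 7.78%.

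YARS1, LARS1 and IARS1 were the 3 members with most clusters in each of the 4 SpyCatcher lists. Version 1.0 had 54 clusters in 16 members at 20 µg and 65 in 18 members at 40 µg, against 22.7% and 23.7% of all protein-coding genes with a cluster. Version 2.0 had 96 clusters in 23 members at 20 µg and 98 in 18 members at 40 µg, against 27.0% and 28.2%. From 20 to 40 µg of version 2.0 the number of clusters was nearly the same and the number of genes lower. Cytosolic genes held 45, 50, 76 and 81 of these clusters and mitochondrial genes 9, 15, 20 and 17. In the order version 1.0 at 20 and 40 µg and version 2.0 at 20 and 40 µg, LARS1 held 8, 14, 16 and 18 clusters. YARS1 held 10, 9, 17 and 13, and IARS1 held 11, 7, 13 and 17. MARS1 held 4, 4, 4 and 8, GARS1 1, 5, 6 and 7, and NARS2, the leading mitochondrial gene, 4, 5, 6 and 8. LARS1 and NARS2 had more clusters with version 2.0 than with version 1.0 at either amount, as YARS1 and IARS1 did. In all protein-coding genes the clusters were also more numerous with version 2.0, going from 15533 to 23697 at 20 µg and from 17319 to 27107 at 40 µg, so that nothing particular to the members is read from these numbers. Each value is from 1 library with unknown depth. The clusters in members overlapped PTBP1 clusters of the 10000000-cell list in 92.6% (82.1 to 97.9), 87.7% (77.2 to 94.5), 91.7% (84.2 to 96.3) and 90.8% (83.3 to 95.7), beside 80.7%, 82.5%, 82.8% and 82.4% over all protein-coding genes. In the same order the overlap was 91.1%, 94.0%, 92.1% and 95.1% in cytosolic genes. In mitochondrial genes it was 100%, 66.7% (38.4 to 88.2), 90.0% and 70.6% (44.0 to 89.7), from few clusters. At 40 µg the mitochondrial shares thus lay below those of all protein-coding genes, with intervals that include them. In all 9 narrow lists 13 members held a cluster, 9 cytosolic and 4 mitochondrial, or 37.1% against 11.3% of all protein-coding genes.

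Cas13 sites, with a median width in members of 116 nt for dPspCas13b and 170 nt for dRfxCas13d without guide, lay in many cytosolic and few mitochondrial genes. Without guide, dPspCas13b had 25 sites in 10 of 35 members, against 10.4% of all protein-coding genes with a site. Of these, 18 sites were in 8 cytosolic genes and 7 in 2 mitochondrial genes. Without guide, dRfxCas13d had 32 sites in 12 members against 9.75%, and 31 of them were in 11 cytosolic genes and 1 in a mitochondrial gene. The mitochondrial shares, 11.8% and 5.88% of 17 genes, lay near those of all protein-coding genes, while the cytosolic shares were 44.4% and 61.1% of 18. A filter then kept only sites at or above the median width of each list. For dPspCas13b it left 6 sites in 2 cytosolic genes and 2 in 1 mitochondrial gene. For dRfxCas13d it left 15 sites in 8 cytosolic genes and none in mitochondrial genes. Shares of all protein-coding genes under this filter are not given here, so these counts cannot be set against 10.4% and 9.75%. The 7 genes with a site of both proteins, EPRS1, GARS1, IARS1, NARS1, SARS1, TARS1 and YARS1, are all cytosolic. They make up 20.0% of the members, against 3.78% of all protein-coding genes. Unlike the clusters, these sites did not follow gene length, with Spearman correlations over the 35 genes of 0.09 for dPspCas13b and 0.06 for dRfxCas13d. With PTBP1 clusters at 10000000 cells they were 0.21 and 0.23. Without guide, PTBP1 clusters of the 10000000-cell list were overlapped by 7 of 25 dPspCas13b sites in members, 28.0% (12.1 to 49.4), against 50.5% over all protein-coding genes, and by 13 of 32 dRfxCas13d sites, 40.6% (23.7 to 59.4), against 36.6%.

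Of the multisynthetase complex, IARS1 held 3 sites of dPspCas13b and 10 of dRfxCas13d without guide. The dRfxCas13d sites were spread along the gene, from 5.35 kb after the start to 0.379 kb before the 3′ end, and a pair of them met a dPspCas13b site at chr9:92210651-92210764, which ended 0.444 kb from the 3′ end. A further dPspCas13b site of IARS1 lay 0.121 kb from the start. EPRS1 held 5 sites of dPspCas13b and 2 of dRfxCas13d, of which 1 of each met at chr1:220024316-220024446, and a pair of its dPspCas13b sites overlapped each other near 10.9 kb from the 3′ end. MARS1 held 2 sites of dRfxCas13d, and KARS1 and RARS1 held 1 each. QARS1 held 1 site of dPspCas13b, 0.736 kb from its start. LARS1 held none without guide and thus stood apart from the PTBP1 and RBFOX2 lists, where it was among the genes with most clusters.

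Of the other cytosolic genes, SARS1, which held no PTBP1 cluster at 1000 cells and no RBFOX2 cluster, had 3 sites of each protein. They ended 0.776 to 6.39 kb from its 3′ end, and none of dPspCas13b overlapped one of dRfxCas13d. YARS1 had 2 and 4 sites, of which a pair of dRfxCas13d sites reached within 0.100 kb of the 3′ end. The pair of dPspCas13b sites of YARS1 overlapped each other, 19.5 kb from the start. GARS1 had 2 and 2 sites, of which 1 of each met at chr7:30622348-30622427, TARS1 had 1 and 3, of which 1 of each met at chr5:33463699-33463818, and NARS1 had 1 and 2 at separate places. WARS1 had 1 site of dRfxCas13d. VARS1, CARS1, HARS1 and AARS1 had no Cas13 site in the 6 lists, though AARS1 and HARS1 held 57 and 34 PTBP1 clusters.

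Among mitochondrial genes IARS2 held 6 sites of dPspCas13b and none of dRfxCas13d. All 6 began at least 44.8 kb after the start of its 53.9 kb, and the last ended 0.0130 kb from the 3′ end. In PTBP1 the gene held 82 clusters at 10000000 cells, 46 at 100000 and 1 at 10000. Of the 7 dPspCas13b sites in mitochondrial genes, 4 overlapped a PTBP1 cluster of the 10000000-cell list, all of them in IARS2. TARS2 held 1 site of dPspCas13b and AARS2 1 of dRfxCas13d. The other 14 mitochondrial genes had no site without guide. Mitochondrial genes with a site in either list without guide thus made up 17.6%, near the 16.4% of all protein-coding genes. In all members the last 2000 nt held 3 of 25 dPspCas13b sites, 12.0% (2.55 to 31.2), against 46.6% over all protein-coding genes, and 9 of 32 dRfxCas13d sites, 28.1% (13.7 to 46.7), against 31.5%.

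With guides against EZH2, which none of the members encodes, 25.7% of the synthetase genes held a site in any of the 4 lists. Over all protein-coding genes this was 11.1%. With EZH2g1, dPspCas13b had no site in a member, against 0.274% of all protein-coding genes. With EZH2g2 it had 2 sites, both in LARS1, at chr5:146168103-146168211 and chr5:146157546-146157676. This was 2.86% of the members, against 2.57%. With EZH2g1, dRfxCas13d had a site in 11.4% of the members against 4.18%, with 1 site each in AARS2, LARS2 and WARS1. With EZH2g2 it had 1 each in GARS1, NARS2, QARS1 and RARS1, again 11.4%, against 5.43%. The GARS1 site, chr7:30622255-30622493, lay over the stretch that dPspCas13b and dRfxCas13d shared without guide. The others were at places with no site in the lists without guide. No member held a site of both proteins with the same guide. With EZH2g1 this follows from the lack of any dPspCas13b site in a member. The share over all protein-coding genes was not computed, so nothing particular to the members is read from it. The guide sequences were not used here, and whether these sites match a guide was not analysed.

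The wider tRNA-charging pathway was read from 15 further genes. All 15 held PTBP1 clusters at 10000000 cells, 880 in sum, and 8 did at 1000 cells with 34 clusters. At these inputs 60.3% and 31.0% of all protein-coding genes held a cluster. Of the scaffold genes of the complex, EEF1E1, 29.2 kb long, held 137, 108, 126 and 16 clusters as the input went down, and 72 clusters of RBFOX2. AIMP1 held 45, 17, 2 and 0, and AIMP2 9, 8, 0 and 0. FARSB and FARSA encode the subunits of the cytosolic phenylalanine enzyme, and FARSB held 255, 166, 91 and 9 while FARSA held 13, 1, 1 and 1. Of the genes for the mitochondrial glutamine route, which converts charged glutamate, GATC held 55, 41, 27 and 2, GATB 30, 17, 1 and 0, and QRSL1 47, 26, 0 and 1. MTFMT, which formylates the mitochondrial initiator, held 51, 33, 4 and 1. Without guide, DTD1, a proofreading enzyme, held 2 dPspCas13b sites and AIMP1 held 1 dRfxCas13d site, so that 2 of 15 genes had a Cas13 site without guide, 13.3%, against 16.4% of all protein-coding genes and 12 of the 18 cytosolic synthetases, 66.7%. With guides, GATC held 4 dPspCas13b sites with EZH2g2 and AARSD1 held 3 dRfxCas13d sites with EZH2g2. FARSA held 1 site of each protein with EZH2g2, and TARS3 held 1 dRfxCas13d site with EZH2g1. In any list with a guide 26.7% of the 15 genes held a site, against 11.1% of all protein-coding genes.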

How the data were processed

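Positions were taken from the authors' deposited lists in BED format, whose start and end columns hold coordinates and no other measured value, 1 list per group and 17 lists read. Of these, 2 lists with a further guide are not reported here, nor are the single values of 2 members, which are kept in counts over all members. Per the submitters' processing notes the reads were handled with Trim Galore 0.0.6 and STAR 2.7.9a on hg38. The sources used here do not name the caller of the sites or its thresholds, nor how duplicates were treated and whether libraries were pooled. A caller that needs a minimum number of reads would thin the lists of shallow libraries. Starts were turned from counting from 0 to counting from 1.

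Gene spans came from RefSeq of GRCh38.p14, the assembly of hg38. The strand of a gene was read from the RefSeq table of promoter sequences (15843 genes, 28 members). Otherwise it was taken from the PTBP1 clusters of the 10000000-cell list, where at least 3 lay in the span and at least 90% on 1 strand (1747 genes, with YARS1, LARS1 and AARS2 among them). For 2447 genes, VARS1 and VARS2 among them, sites on both strands were counted. In 8542 genes with both sources the strands were equal in 96.6%. A site under overlapping genes was counted for each. Sites overlapped when they had at least 1 nt in common on the same strand. Counts, shares, sites per kb and exact Clopper-Pearson 95% intervals were computed, with all 20037 protein-coding genes as the background. With 1 list per group there was no test. Any other member could be named. The code was tested on simulated data, with 0 wrong answers. The members, the lists of genes and the alternatives were chosen with earlier results of these data known. Python 3.11.15, numpy 2.4.6, pandas 2.3.3, scipy 1.17.1 and matplotlib 3.10.9 were used. Shares in exons and motifs beside sites were planned but not analysed here, since no exons or genome sequence were used.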

Additional observations from a re-analysis of the deposited data

How the results depend on the processing

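Of 804 values recomputed under an alternative, 694 moved by less than the spread or interval set for them and 110 moved further. Any overlap with the gene span in place of the midpoint, sites on either strand, leaving out sites under another protein-coding gene, and leaving out GARS1 and KARS1 moved none. Merging sites within 10 nt gave 1008 clusters in cytosolic genes at 10000000 cells. Keeping sites at or above the median width of their list left 934 mitochondrial clusters at 10000000 cells and 3 mitochondrial genes with SpyCatcher 1.0 at 20 µg. For dPspCas13b without guide it left 6 sites in 2 cytosolic genes and 2 sites in 1 mitochondrial gene. For dRfxCas13d without guide it left 15 cytosolic sites and 0 sites in 0 mitochondrial genes. For dRfxCas13d it left 0 cytosolic and 1 mitochondrial gene with EZH2g1, and 1 and 0 with EZH2g2. Shares of all protein-coding genes under this width filter are not given here. The 100000-cell clusters in members overlapped those at 10000000 cells in 50.0% when at least 50% of the cluster had to be covered and in 75.4% within 20 nt, and RBFOX2 clusters did in 92.5% within 20 nt. The last 1000 nt held 3.60% and the last 5000 nt 12.1% of PTBP1 clusters at 10000000 cells, and the last 5000 nt 32.0% of dPspCas13b sites.

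Relative to the PTBP1 number at 10000000 cells, and chosen after seeing the data, plus-strand genes alone gave 2.09% (cytosolic) and 0.980% (mitochondrial) at 1000 cells and 4.76% (mitochondrial) for RBFOX2. Cytosolic genes without IARS1, LARS1 and YARS1 gave 3.70% at 1000 cells and 13.2% for RBFOX2. Cytosolic genes stayed above mitochondrial genes in each of these settings where both were computed. The planned results on exons and on motifs, and sites per kb of exon, were not run, since exons and a genome sequence were not used here. No paired analysis was possible because each group has 1 list and no result comes from a test. The depth behind the lists is unknown, so a gene without a site may lie below what the libraries could show, and lists of different length could not be set to equal depth.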
